A study of Mus musculus with 20 samples.

Results

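A set of 9 genes that mark epithelial cells were followed in mesenchymal cells sorted from the mouse gut. They were *Epcam*, *Cdh1*, *Krt8*, *Krt18*, *Krt19*, *Spint1*, *Vil1*, *Elf3* and *Esrp1*, chosen by symbol as 9 of the 43280 gene symbols in the count files, and all 9 had a row in every RNA library. RNA came from 12 libraries, with 2 in each of 6 groups, and accessible chromatin (ATAC-seq) came as 4 peak lists, 1 for each embryonic group. Embryonic cells were GFP+ cells from the stomach or the intestine of mice at E13.5 (labelled C57BL/6, though the study describes mixed strain backgrounds), either Bapx1-cre;Rosa26mTmG (control) or Eed fl/fl;Bapx1-cre;Rosa26mTmG (*Eed* KO). Adult GFP+ cells came from the small intestine of mice of about 10 weeks with the genotype Pdgfrβ Cre-ERT2/+;Rosa26mTmG (adult control) or Pdgfrβ Cre-ERT2/+;Eed fl/fl;Rosa26mTmG (adult *Eed* KO), given tamoxifen for 5 days and left for 2 days. *Eed* encodes a core subunit of Polycomb Repressive Complex 2, which places the repressive mark H3K27me3. Every group, controls included, carries a Cre and the mTmG reporter, which turns cells from membrane Tomato to membrane GFP once Cre has acted, so a cell was collected for its Cre history and not for its present genes. *Bapx1*-driven Cre acts in the gut mesenchyme of the embryo, and in the adult the villi were scraped off and the epithelium was washed away with EDTA before the sort.

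Epithelial cells are held together by adhesion proteins, among them E-cadherin (*Cdh1*) and EpCAM (*Epcam*), and are stiffened by pairs of keratin filaments built from *Krt8*, *Krt18* and *Krt19*. Mesenchymal cells are usually set apart by the lack of these proteins, and repressors such as Snail and ZEB keep several of the genes off by binding the E-box CACCTG in their promoters. Keratins 8, 18 and 19 are also made by mesothelium, the cell sheet that covers the gut and belongs to the same mesodermal layer. The other members act at the cell surface (*Spint1*, an inhibitor of membrane serine proteases such as matriptase), in the microvilli of the intestinal brush border (*Vil1*), in transcription (*Elf3*) and in the splicing of epithelial isoforms (*Esrp1*).

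Gene counts per library ran from 30236159 to 39606157 in the embryo and from 11404712 to 15903642 in the adult, so that a count of 0 allows up to 0.0992 CPM in an embryonic library and up to 0.263 CPM in an adult one. These limits, and the intervals on counts below, cover counting error only. With *Eed* deleted in the embryo, *Eed* RNA fell by 2.11 (stomach, adjusted p = 0.00175) and 2.02 (intestine, adjusted p = 0.00464) on the log2 scale by the quasi-likelihood test of edgeR. In the adult, *Eed* had 29.7 and 33.4 CPM in the controls and 25.7 and 25.049 CPM in the libraries labelled *Eed* KO. The log2 fold change of -0.32 did not pass the edgeR test (adjusted p = 0.317). These counts alone do not show the deletion, so the adult group is named by its label. The paper separately reports the efficiency of *Eed* deletion in isolated adult cells next to the crypts (n = 2 animals), which was not examined here. The study calls the libraries biological replicates, but the labels do not tell which animals went into which library, so p-values measure the spread between these libraries. With 2 libraries a side, the smallest two-sided p of an exact permutation test is 0.333, and all tests below rest on the spread that edgeR shares across genes.

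Promoters are shown for 3 members that gave different results. *Spint1* was the member that rose in all 3 *Eed* KO comparisons, *Epcam* was the one that differed between the control organs, and *Krt18* did not pass the test in any comparison. The stretches run from 250 bases before to 50 bases after the gene start (RefSeq, GRCm38.p6), at chr2:119237110-119237409 on the plus strand for *Spint1*, chr17:87635729-87636028 on the plus strand for *Epcam* and chr15:102027966-102028265 on the plus strand for *Krt18*. Capitals mark the E-box, CACCTG or its reverse complement CAGGTG.
Spint1: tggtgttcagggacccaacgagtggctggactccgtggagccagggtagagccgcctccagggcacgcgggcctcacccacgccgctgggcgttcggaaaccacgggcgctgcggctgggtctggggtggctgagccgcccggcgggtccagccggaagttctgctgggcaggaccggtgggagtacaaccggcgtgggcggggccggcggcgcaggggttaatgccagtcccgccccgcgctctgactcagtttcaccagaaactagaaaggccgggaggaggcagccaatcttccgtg
Epcam: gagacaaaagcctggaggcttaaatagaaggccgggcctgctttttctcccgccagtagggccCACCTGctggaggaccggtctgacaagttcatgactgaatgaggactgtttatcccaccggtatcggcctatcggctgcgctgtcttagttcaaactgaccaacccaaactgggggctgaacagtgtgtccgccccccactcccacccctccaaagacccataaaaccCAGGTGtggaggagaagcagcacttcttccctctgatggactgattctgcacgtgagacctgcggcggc
Krt18: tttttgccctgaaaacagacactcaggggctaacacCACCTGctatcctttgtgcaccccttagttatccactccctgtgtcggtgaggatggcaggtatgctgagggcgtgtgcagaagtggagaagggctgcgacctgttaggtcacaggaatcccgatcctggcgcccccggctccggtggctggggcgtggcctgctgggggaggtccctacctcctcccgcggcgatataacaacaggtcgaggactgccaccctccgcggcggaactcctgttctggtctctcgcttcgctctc
Entries were found for 6 of the 9 members, with *Cdh1*, *Krt19* and *Esrp1* not among them. The E-box was present in 5 of these 6 promoters, at 2 places in *Epcam* and at 1 each in *Krt8*, *Krt18*, *Vil1* and *Elf3*, and its letters were not in the *Spint1* window. Of 32851 mouse promoters of the same length, 20.2% held it on either strand. The *Spint1* promoter held 28 CpG dinucleotides, more than 85.8% of promoters, against 11 in *Epcam*, 17 in *Krt18*, 12 in *Elf3*, 6 in *Krt8* and 5 in *Vil1*.

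Among the 9 genes, the keratins made up most of the signal of the embryonic mesenchyme. On the TPM scale, which divides by gene length, and as group means, *Krt19* was highest in all 4 embryonic groups and *Krt18* came next, with *Krt8* and *Epcam* after them. *Krt19* had a level of 98.2 ± 16.3 TPM (SD, n = 2) in the control stomach, 79.0 ± 22.9 in the *Eed* KO stomach, 73.1 ± 31.2 in the control intestine and 48.7 ± 1.36 in the *Eed* KO intestine. *Krt18* had 49.957 ± 7.48, 51.6 ± 10.0, 43.6 ± 13.2 and 36.3 ± 5.92 TPM in the same order. In both control intestine and *Eed* KO stomach, the SDs of *Krt19* and *Krt18* bridge the gap between the means. Within every embryonic library, however, *Krt19* was above *Krt18*. In the control stomach *Epcam* (21.3 ± 1.73 TPM) and *Krt8* (19.006 ± 2.35 TPM) were within their spread of each other, with *Epcam* the higher in both libraries. Together the 3 keratins held 82.1% to 96.2% of the summed TPM of the 9 genes in embryonic libraries. The other 5 members were all below 5 TPM as embryonic group means, with *Esrp1* lowest in the control intestine (0.00812 TPM).

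Most of the 9 genes were therefore present at low counts, and the members did not keep a fixed proportion to each other. Over the 8 embryonic libraries the TPM of *Elf3* divided by that of *Epcam* varied 3.22-fold and that of *Krt18* 4.39-fold, while that of *Spint1* varied 46.0-fold. In the adult libraries the ratio of *Spint1* to *Epcam* varied 184-fold.

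**Figure D1:**
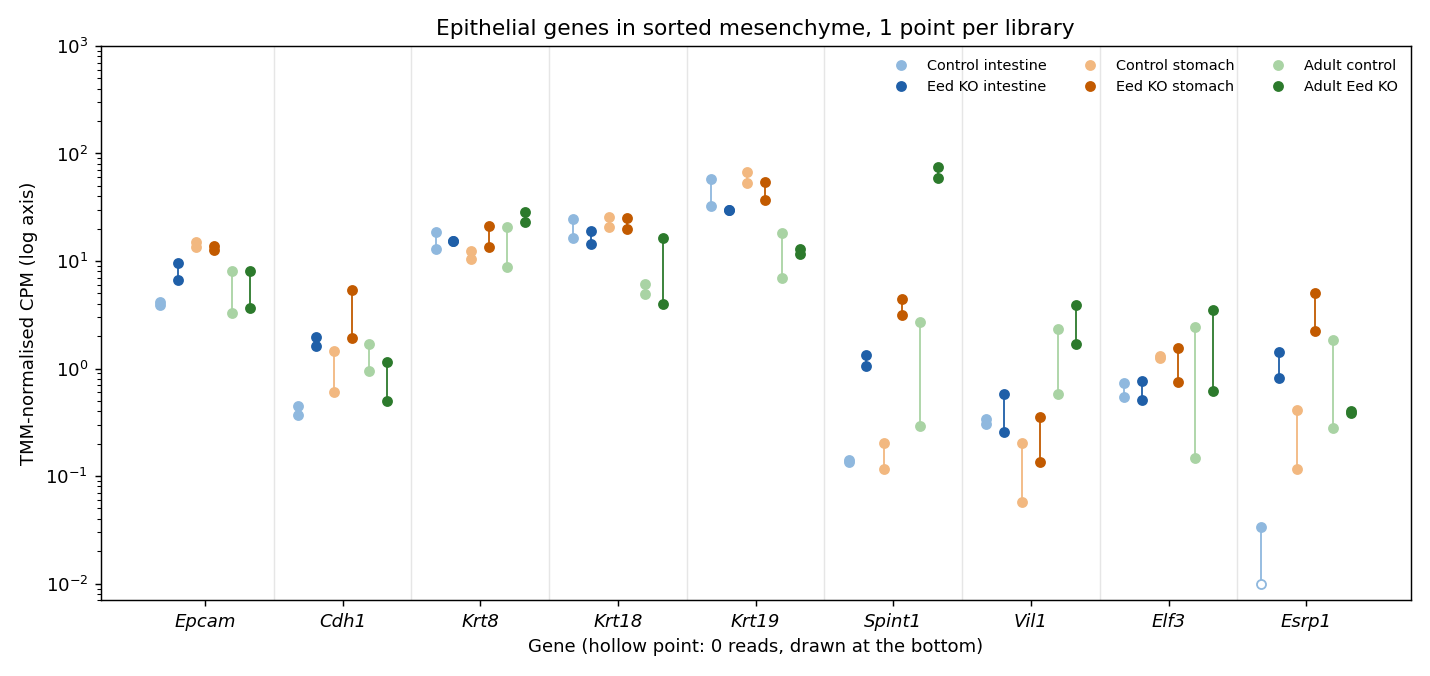
CPM after TMM scaling on a log axis for the 9 genes, with 1 point for each of 12 libraries, coloured by group, and a line joining the 2 libraries of a group. Embryonic and adult libraries were scaled separately. *Spint1* lies at 0.116 to 0.204 CPM in the embryonic controls and at 59.5 and 74.5 CPM in the adult *Eed* KO libraries, and the hollow *Esrp1* point is a control intestine library with 0 reads.

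In the stomach, *Spint1* and *Esrp1* were higher in *Eed* KO than in control cells, and no member was lower. *Spint1* had 4 and 8 reads in the control stomach and 118 and 162 reads in the *Eed* KO stomach, which is 0.116 and 0.204 CPM against 3.17 and 4.44 CPM. Both *Eed* KO libraries lay far above both controls, with a 23.0-fold difference (log2 fold change 4.52, standard error 0.38, adjusted p = 0.000926). The 95% interval of this fold, from the degrees of freedom of the test, ran from 12.5 to 42.4. *Esrp1* had 0.116 and 0.408 CPM in the controls and 2.23 and 4.99 CPM in the *Eed* KO libraries, a 13.3-fold difference (log2 fold change 3.74, standard error 0.66, adjusted p = 0.0163). The *Esrp1* groups did not overlap. Spike-in scaling moved the median of all genes up by 2.39 on the log2 scale in this comparison and turned *Epcam*, *Krt18*, *Krt19* and *Elf3* upward, so changes here are relative to the bulk of genes, and on that scale *Spint1* still lay 4.59 above the shift. When each of the 4 stomach libraries was left out in turn, *Spint1* passed the thresholds every time, while *Esrp1* passed only without *Eed* KO replicate 1 (adjusted p = 0.016) and missed them without control replicate 1 (0.0945), control replicate 2 (0.054) or *Eed* KO replicate 2 (0.0785). With 1 factor of unwanted variation from the spike-in RNA, the adjusted p of *Esrp1* was 0.057.

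These 2 members stand beside 4.84% of all 16218 tested genes that were called higher in the *Eed* KO stomach and 0.808% that were called lower. *Cdh1*, whose product E-cadherin forms adherens junctions, had 0.609 and 1.45 CPM in the controls and 1.93 and 5.32 CPM in the *Eed* KO libraries. The groups did not overlap, but the difference did not pass the test (log2 fold change 1.80, standard error 0.54, adjusted p = 0.0967). DESeq2 gave an adjusted p of 0.0207 for *Cdh1*, and the edgeR alternatives ranged from 0.00931 to 0.481. *Krt8* was at 12.3 and 10.3 CPM in the controls and at 13.4 and 21.3 CPM in the *Eed* KO stomach (adjusted p = 0.202). Groups did not overlap for 4 members, against 55.0% of all tested genes. *Epcam*, *Krt18*, *Krt19*, *Vil1* and *Elf3* had overlapping groups, and the interval of the fold change was narrowest for *Epcam*, from 0.685 to 1.25.

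The intestine gave calls for the same 2 genes. *Spint1* had 5 and 4 reads in the control intestine and 40 and 47 reads in the *Eed* KO intestine, or 0.140 and 0.135 CPM against 1.06 and 1.34 CPM. This was an 8.50-fold difference (log2 fold change 3.09, standard error 0.41, adjusted p = 0.0115), beside 2.38% of tested genes called higher and 0.228% called lower. *Esrp1* had 0 and 1 read in the control intestine and 31 and 50 reads in the *Eed* KO intestine (adjusted p = 0.0369). Its ratio of reads between the groups, per gene count, was 73.8, with a 95% exact counting interval from 12.9 to 2951. Both calls depended on the control libraries. Without control replicate 1 or 2 the adjusted p of *Spint1* was 0.118 or 0.0914 and that of *Esrp1* was 0.258 or 0.15. *Esrp1* was also not called without *Eed* KO replicate 2 (adjusted p = 0.107) or with the spike-in factor (0.067).

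*Epcam* sat at the edge of the threshold in the intestine, with 4.19 and 3.87 CPM in the controls and 9.50 and 6.62 CPM in the *Eed* KO libraries. Both *Eed* KO libraries were higher and the adjusted p was 0.0431, but the log2 fold change of 0.9998 fell just short of 1. *Cdh1* had 0.450 and 0.370 CPM in the controls and 1.64 and 1.97 CPM in the *Eed* KO intestine, again with no overlap and no call (log2 fold change 2.12, standard error 0.62, adjusted p = 0.143; DESeq2 adjusted p = 0.0157). *Krt19* was the member with both *Eed* KO libraries below both controls, at 29.9 and 29.6 CPM against 32.1 and 58.0 CPM, and it did not pass (adjusted p = 0.438). In all, 5 members had groups that did not overlap, beside 38.3% of tested genes. *Krt8*, *Krt18*, *Vil1* and *Elf3* had overlapping groups, with log2 fold changes between -0.27 and 0.39.

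A difference between the organs in the response to *Eed* deletion was tested as an interaction, with an adjusted p under 0.2 as the limit. No member was called in the main edgeR fit, beside 0.462% of tested genes, and 1 member, *Epcam*, had an unadjusted p under 0.05. Its interaction was -1.11 on the log2 scale (standard error 0.27, adjusted p = 0.342). Spike-in scaling aside, *Epcam* was called in 5 of 7 alternatives that kept every library, DESeq2 and several edgeR fits among them. *Spint1*, with a larger fold in the stomach, had an interaction of 1.44 (standard error 0.63, adjusted p = 0.861), and its 95% interval, as a ratio of folds, ran from 0.984 to 7.45.

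*Epcam* separated the control organs. It was at 15.1 and 13.5384 CPM in the control stomach and at 4.19 and 3.87 CPM in the control intestine, giving -1.83 as the log2 ratio of intestine to stomach (standard error 0.20, edgeR adjusted p = 0.00187). Both stomach libraries were more than 3 times as high as either intestinal library. The call held in 12 of 12 alternatives other than spike-in scaling. Under spike-in scaling the log2 fold change was -1.52 and the call was lost. In the main fit *Epcam* was the single member called, beside 3.39% of tested genes lower and 1.68% higher in the intestine. *Elf3*, a transcription factor of simple epithelia, had 1.25 and 1.30 CPM in the stomach and 0.730 and 0.538 CPM in the intestine and did not pass (adjusted p = 0.273). *Vil1*, the brush border gene, had 2 and 8 reads in the control stomach and 12 and 9 in the control intestine (adjusted p = 0.513). Groups did not overlap for 6 members, 2 of them higher and 4 lower in the intestine, beside 51.2% of tested genes. Mesothelial *Wt1* and *Gpm6a*, 2 of 8 markers tested, were also lower in the control intestine, where the list summed to 420 and 665 TPM against 699 and 727 TPM in the stomach, and endothelial markers were called both ways in the intestine, with *Pecam1*, *Cdh5* and *Emcn* higher and *Esam* lower. *Dcn* of the mesenchyme list and *Nkx6-1* were lower and *Des* of smooth muscle was higher there. The part of these cells in the *Epcam* difference was not tested.

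Between the *Eed* KO organs, *Spint1* was lower in the intestine, at 1.06 and 1.34 CPM against 3.17 and 4.44 CPM in the stomach (log2 fold change -1.67, standard error 0.30, adjusted p = 0.0194). It was the only one of the 9 to be called, beside 2.94% of tested genes lower and 1.46% higher in the intestine. This call was lost in the fit of the 4 *Eed* KO libraries alone (adjusted p = 0.0659) and when *Eed* KO intestine replicate 1 (0.0907), *Eed* KO intestine replicate 2 (0.0547) or *Eed* KO stomach replicate 2 (0.136) was left out. *Epcam* had a log2 fold change of -0.72 in this comparison (adjusted p = 0.0734) and *Esrp1* of -1.69 (adjusted p = 0.142). Groups did not overlap for 5 members, all of them lower in the intestine, beside 44.5% of tested genes. Of 8 mesothelial markers tested, the same 2, *Wt1* and *Gpm6a*, were lower in the *Eed* KO intestine. The median log2 fold change of that list was -0.099, and it summed to 434 and 438 TPM against 406 and 537 TPM in the *Eed* KO stomach. In the *Eed* KO intestine 4 of 6 smooth muscle markers (*Tagln*, *Actg2*, *Cnn1* and *Des*) were higher and *Nkx6-1* was lower. The part of other cell types in the *Spint1* difference was not tested.

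**Figure D2:**
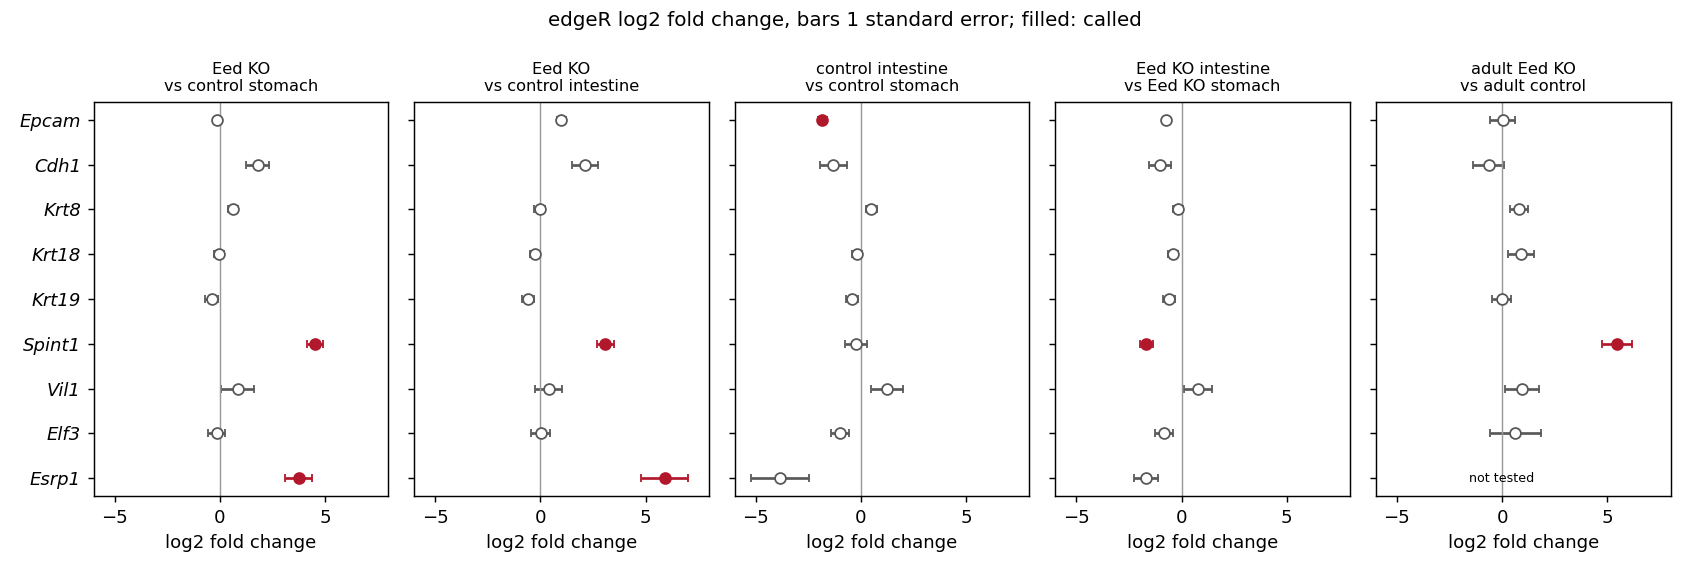
log2 fold change of each gene in 5 comparisons, with bars of 1 standard error and filled points for calls. *Spint1* is filled at 4.52, 3.09, -1.67 and 5.45, *Esrp1* at 3.74 and 5.89, and *Epcam* at -1.83, while the 3 keratins, *Vil1* and *Elf3* have hollow points throughout. The fitted *Esrp1* value in the intestine rests on 1 control read.

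In the adult intestine, *Spint1* rose from 4 and 39 reads in the controls to 742 and 769 reads in the libraries labelled *Eed* KO. This was 0.293 and 2.73 CPM against 74.5 and 59.5 CPM, a 43.6-fold difference (log2 fold change 5.45, standard error 0.71, adjusted p = 0.00236). The groups did not overlap, but the controls lay far apart, and the log2 fold change was 7.79 without control replicate 2 and 4.60 without control replicate 1. *Spint1* was the first of the 9 genes by level in the libraries labelled *Eed* KO, at 42.3 ± 9.85 TPM (SD, n = 2) against 25.025 ± 5.79 TPM for *Krt8*, and the sixth in the adult controls. It was called in 10 of 10 alternatives. Of the 8 members tested it was the only call, beside 12.3% of 15039 tested genes higher and 7.23% lower.

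The other members gave no adult call. *Epcam* had 3.29 and 8.06 CPM in the controls and 8.03 and 3.63 CPM in the libraries labelled *Eed* KO, and *Krt19* had 6.88 and 18.1 CPM against 12.9 and 11.7 CPM, so that the groups overlapped for both genes. *Krt8* was at 8.78 and 20.8 CPM in the controls and 28.7 and 23.0 CPM in the libraries labelled *Eed* KO (adjusted p = 0.201). Together with *Spint1* it was 1 of 2 members whose groups did not overlap, beside 65.3% of tested genes. *Esrp1* had 25 and 4 reads in the controls and 4 and 5 in the libraries labelled *Eed* KO, too few to be tested. *Cdh1* was at 0.951 and 1.68 CPM against 0.502 and 1.16 CPM in the adult (adjusted p = 0.575). Adult reads were counted without strand. Where exons of *Vil1*, *Elf3* and *Esrp1* overlap those of *Usp37*, *Gm26642* and *Gm26663*, strand could therefore not be used to assign adult reads.

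Marker genes of other cells moved with some of these results. In the adult libraries labelled *Eed* KO, all 5 tested markers of macrophages and leukocytes (*Ptprc*, *Csf1r*, *Cd68*, *C1qa* and *C1qb*) rose by 4.04 to 5.38 on the log2 scale, and their summed level was 10936 and 10335 TPM against 302 and 617 TPM in the controls. Mesenchymal markers went the other way, with *Pdgfra*, *Col1a1*, *Col1a2* and *Col3a1* lower among 8 tested and a summed level of 9099 and 9883 TPM against 21188 and 23950 TPM. Of the adult intestinal epithelium list, 4 of 15 tested genes rose (*Fabp1*, *Lyz1*, *Alpi* and *Tspan8*), and the list summed to 4378 and 7778 TPM against 1881 and 2938 TPM. *Lyz1* held 2842 to 5715 TPM of this sum in the libraries labelled *Eed* KO and 510 to 573 TPM in the controls. *Defa24*, the other large part, overlapped, at 1246.5 to 1613.7 TPM against 1131.9 to 2267.6 TPM. *Lyz1* has a near-identical paralog, *Lyz2*, so its count is uncertain, and with it the rise of the sum. Smooth muscle genes *Actg2*, *Cnn1* and *Myh11*, endothelial *Pecam1* and neuronal *Elavl4* were also higher and mesothelial *Gpm6a* was lower. The pancreas list reached 650 TPM in 1 library labelled *Eed* KO, of which *Cpa1* was 649 TPM. Fewer cells of a type and less RNA per cell cannot be told apart in such bulk samples, and the part of these cells in the rise of *Spint1* was not tested.

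In the embryo, the lists of adult intestinal epithelium and of macrophages were low. The first list holds genes of the adult tissue, so its low sum does not measure how much embryonic epithelium was in the sort. Of the 17 adult intestinal epithelium genes, including those of enterocytes (*Fabp1*) and of Paneth cells (*Defa24*), between 6 and 10 had 0 reads in both libraries of a group, and the list summed to 4.08 to 6.85 TPM. The macrophage list summed to 1.36 to 6.63 TPM. Endothelial markers rose with *Eed* deletion, 4 of 6 in the stomach (*Pecam1*, *Cdh5*, *Tie1* and *Emcn*) and 3 of 6 in the intestine (*Cdh5*, *Tie1* and *Esam*), from a summed 9.05 and 10.1 TPM to 15.9 and 28.2 TPM in the stomach and from 6.50 and 9.44 TPM to 28.6 and 29.4 TPM in the intestine. *Nkx6-1*, of the pancreas list, also rose in both organs, from 108 to 139 reads per library to 676 to 710 in the stomach (log2 fold change 2.49, adjusted p = 0.00405) and from 0 reads to 24 to 43 in the intestine (adjusted p = 0.00986). The pancreas list summed to 5.23 and 5.96 TPM in the control stomach and to 28.5 to 31.4 TPM in the *Eed* KO stomach. Nearly all of this was *Nkx6-1*, at 4.54 to 5.12 TPM and 27.1 to 30.3 TPM. Of the other genes of the list, *Cpa1* was not called in the stomach (edgeR adjusted p = 0.571). *Pdx1* had at most 2 reads in a stomach library and *Ptf1a* had 0, so the sum follows 1 gene and does not mark pancreas cells. The part of other cell types in the rise of *Spint1* and *Esrp1* was not tested. The mesothelium list, whose cells also make keratins, summed to 699 and 727 TPM in the control stomach and 406 and 537 TPM in the *Eed* KO stomach, and to 420 and 665 TPM in the control intestine and 434 and 438 TPM in the *Eed* KO intestine. No gene of it was called by genotype, although *Upk3b* (log2 fold change -0.97, adjusted p = 0.0284) and *Upk1b* (-0.81, adjusted p = 0.0465) passed the p threshold in the stomach with changes under the size limit. *Wt1* (0.72, adjusted p = 0.0623) and *Msln* (2.06, adjusted p = 0.365) went the other way in the stomach and did not pass. The rest of the list had negative log2 fold changes there. The part of mesothelium in the keratin levels was not tested.

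**Figure D3:**
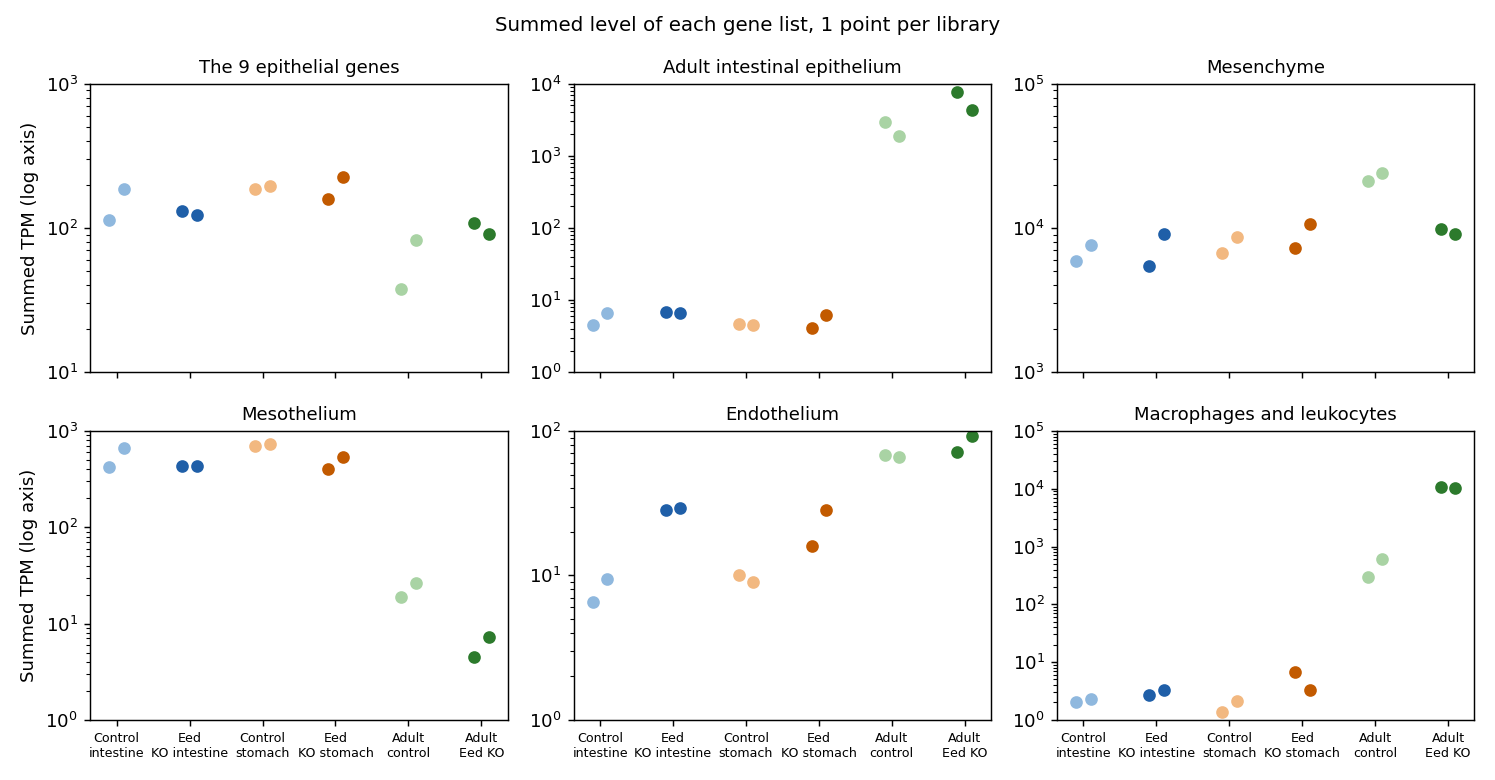
Summed TPM of 6 gene lists on log axes, with 1 point for each library, coloured by group. The macrophage and leukocyte list stands at 10335 and 10936 TPM in the adult *Eed* KO libraries and at 1.36 to 6.63 TPM in the embryo, whereas the 9 epithelial genes sum to 114 to 227 TPM in the embryo.

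Genes that work with the members gave a small number of further calls. Among 5 surface proteases and inhibitors, *St14*, which encodes matriptase, the protease that the *Spint1* product inhibits, rose in both organs. It had 12 to 29 reads per library in the control stomach and 71 to 106 in the *Eed* KO stomach (log2 fold change 2.12, standard error 0.42, adjusted p = 0.0243), and 3 to 5 reads in the control intestine against 35 to 43 (log2 fold change 3.08, standard error 0.55, adjusted p = 0.0311). *Spint2*, a second inhibitor of such proteases, was far more abundant, at 47.0 to 78.8 TPM over the embryonic libraries, and was not called. Among 10 regulators of epithelial transcription and splicing, 6 were tested and 1, *Grhl2*, a transcription factor of epithelial adhesion genes, rose in both organs. Its log2 fold change was 4.55 in the stomach (standard error 0.55, adjusted p = 0.00378) and 2.78 in the intestine (standard error 0.53, adjusted p = 0.0379), from 3 to 7 reads per control library to 33 to 110 reads per *Eed* KO library.

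Junction genes mostly did not pass. Of 17 listed, 16 were tested, with a median log2 fold change of 0.92 in each organ against 0.001 and 0.006 over all tested genes. *Dsp*, a desmosome protein, rose in the stomach (log2 fold change 2.46, adjusted p = 0.0317) and no gene of the list was called in the intestine. For the 9 members the medians were 0.62 in the stomach and 0.39 in the intestine. *Cdh3* of the junction list was at 142 to 223 TPM over the embryonic libraries, above each of the 3 keratins among the members. It was not called by genotype. Of the other keratins, *Krt15* fell in the *Eed* KO stomach by 1.56 on the log2 scale (adjusted p = 0.0139). The repressors *Snai1*, *Snai2*, *Zeb1*, *Zeb2*, *Twist1* and *Twist2* summed to 294 to 431 TPM over the embryonic libraries. None of these repressors was called lower with *Eed* deletion in the embryo, *Twist2* rose in the stomach (log2 fold change 1.01, adjusted p = 0.0204), and none was called by genotype in the intestine.

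Between the control organs, the junction genes *Cldn4*, *Cldn6* and *Ocln* were lower in the intestine alongside *Epcam*, with log2 fold changes of -2.14, -3.62 and -2.07. *Klf5*, *Prss8* and *Krt15* were also lower there (-1.04, -1.49 and -3.75), as was the repressor *Twist1* (-1.04), whereas *Grhl3* was higher (1.39). Between the *Eed* KO organs, *Ocln*, *Klf5*, *Prss8* and *Krt15* were lower in the intestine (-2.01, -1.74, -1.32 and -2.98), and *Trp63*, with 0 reads in the intestine and 52 in the stomach, was at least 17.6-fold lower, counting 3 reads over the group as the floor. In the adult libraries labelled *Eed* KO, *Ehf* rose by 5.13 and *Tjp3* by 3.28 on the log2 scale, *Prss8* rose from 3 reads over both controls to 48 (ratio 13.8, 95% counting interval 4.46 to 69.4), and *Snai2* fell by 1.58. *St14* was not called in the adult (adjusted p = 0.0776), and *Grhl2*, with at most 5 reads in a library, was not tested there.

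Across the 8 embryonic libraries, the genes whose log2 CPM was most like that of *Epcam*, among 13386 genes with a mean of at least 1 CPM, were *Dmrt2* (Pearson r = 0.988), *Isl1* (0.981), *Tspan13* (0.981), *Gdpd1* (0.981) and *Mpst* (0.978). Of these, *Isl1*, a homeobox factor, was at 66.5 and 42.2 CPM in the control stomach and at 3.46 and 4.95 CPM in the control intestine.

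Promoters of most members were accessible in the mesenchyme, in control cells as well as in *Eed* KO cells. A peak overlapped the 1000 bp on either side of the gene start for 7 members in the control intestine, 8 in the *Eed* KO intestine, 8 in the control stomach and 8 in the *Eed* KO stomach. Of 41670 genes, 45.4%, 47.5%, 46.3% and 47.4% had such a peak in these 4 lists. Each list pools the replicates of a condition and carries no error, so presence and fold enrichment (the MACS2 signal over its local background) are descriptions. Some deposited peaks have a -log10 q near 1, although the methods state a limit equal to 2 on this scale, and at that limit the control stomach count was 7, without the *Vil1* peak (-log10 q 1.08), while the other counts were the same. *Vil1* had no promoter peak in the control intestine or the *Eed* KO stomach. *Krt19* had one in the *Eed* KO stomach alone, but its gene model in the files begins 2739 bp before the RefSeq start, and at the RefSeq start a peak of 2.98-fold to 3.42-fold enrichment lay in all 4 lists.

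*Spint1* had a promoter peak in every list although its RNA differed between genotypes. Its fold enrichment was 4.84 in the control intestine and 4.09 in the *Eed* KO intestine, and 4.61 in the control stomach and 4.71 in the *Eed* KO stomach, on chromosome 2 from 119237004 to 119238148 in the control stomach and from 119236589 to 119238217 in the *Eed* KO stomach. These peaks were weaker than the median promoter peak of each list (5.86 to 6.40). *Esrp1* had a peak whose centre lay upstream, at -1612.5 bp, -1583.5 bp and -1545.5 bp from the start in the control intestine, the *Eed* KO intestine and the control stomach, with widths of 2230 to 2270 bp. In the *Eed* KO stomach the peak was 4811 bp wide and reached over the start, with a fold enrichment of 3.76 against 4.07 in the control stomach. *Cdh1*, on chromosome 8, had the strongest promoter peak of the members in 3 of the 4 lists, at 6.54 in the *Eed* KO intestine, 6.25 in the control stomach and 7.48 in the *Eed* KO stomach. *Epcam*, the organ-dependent gene, had 6.22 in the control intestine, where its RNA was lowest, and 4.86 in the control stomach.

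**Figure D4:**
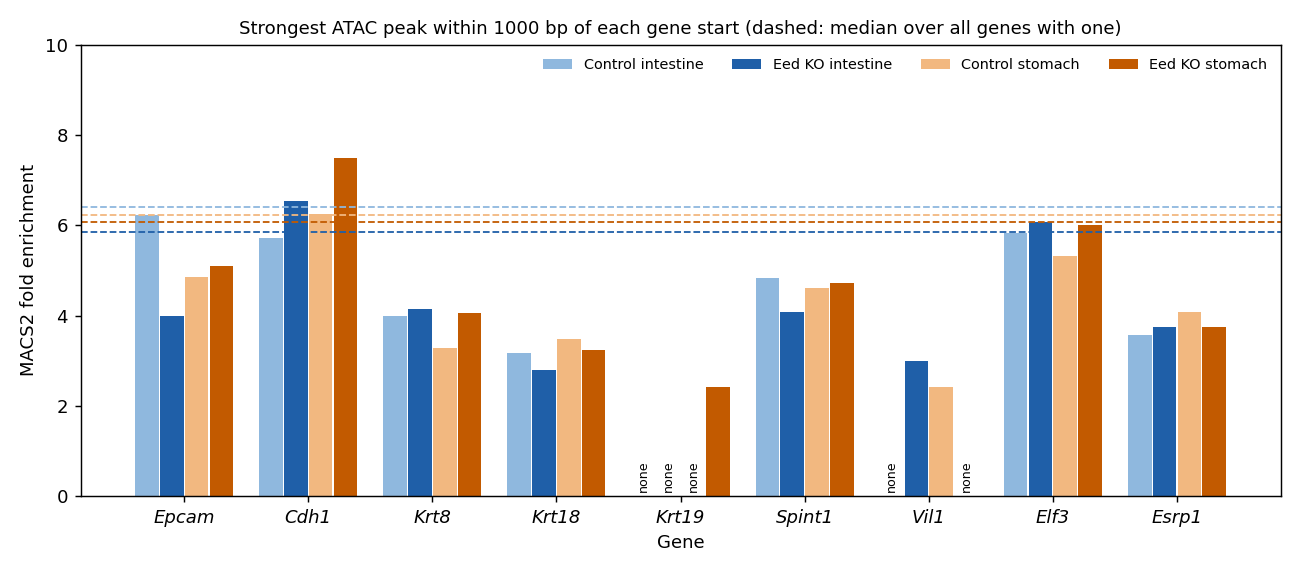
Fold enrichment of the strongest ATAC peak within 1000 bp of each gene start in the 4 pooled lists, with dashed lines at the median over all genes with such a peak. *Spint1* stands at 4.09 to 4.84 in all 4 lists, and the word none marks a list without a peak. Bars have no error since each list pools its replicates.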

How the data were processed

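For RNA-seq, the authors used Trimmomatic for trimming, STAR for alignment to GRCm38/mm10 and featureCounts on GENCODE vM4 for reads per gene. The submitters' notes, the file headers and the methods give different featureCounts versions. The deposited counts are whole numbers and not normalized. Per the file headers, adult counts were made without strand, whereas the strand setting of the embryonic counts is not given in the sources used here. For ATAC-seq, the authors pooled the replicates and called broad peaks with MACS2, and the deposited lists hold a fold enrichment (ratio) and a -log10 q for each peak.

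The 9 members and all gene lists were chosen with earlier results of these data known. The 99 spike-in rows were kept out of the tests. Counts were scaled with TMM, filtered with filterByExpr and tested in edgeR 4.0.16 (quasi-likelihood F-test). P-values were adjusted by Benjamini-Hochberg over all genes tested, 16218 in the fit of the 8 embryonic libraries and 15039 in the adult fit. Calls needed adjusted p < 0.05 together with a change of over 1 on the log2 scale in either direction. TPM used the gene lengths of the adult files. At most 4 called genes per list and comparison are named, with the largest changes, except that all called macrophage and leukocyte markers of the adult are named. The fits were tested on simulated data. Alternatives included DESeq2 1.42.0, other scalings, no filter on low counts, replicate blocks and leaving out each library, and for peaks other windows and q limits. The RefSeq gene start was added after seeing the data.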

Additional observations from a re-analysis of the deposited data

How the results depend on the processing

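In alternatives that leave out 1 library each, the number of members called ran from 1 to 3 for *Eed* KO against control stomach, 0 to 2 for *Eed* KO against control intestine, 0 to 1 for the *Eed* KO organs, 0 to 1 for the interaction and 1 to 2 in the adult. Under spike-in scaling the median over all genes moved up by 2.39 (stomach) and 1.85 (intestine) on the log2 scale with *Eed* KO, and called 9 and 6 members there and 0 between either pair of organs. Under it *Epcam* (2.26), *Krt18* (2.44), *Krt19* (2.09) and *Elf3* (2.40) turned upward in the stomach and *Krt8* (1.83) in the intestine, all below the shift of all genes, whereas *Spint1* lay 4.59 and 3.12 above it. With 1 spike-in factor, 1 member was called in the stomach and 1 in the interaction. Without the low-count filter the counts were 4 in the *Eed* KO intestine, 2 between the control organs, 2 between the *Eed* KO organs and 1 in the interaction. DESeq2 called 1 member in the interaction, and the fit of the *Eed* KO groups alone called 0 between the *Eed* KO organs.

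Stomach and intestine were taken from each animal, but the sources do not tie library numbers to animals. Deviations of same-numbered libraries correlated at 0.406 between the control organs, 0.796 between the *Eed* KO organs, 0.158 to 0.316 between the other embryonic groups and -0.0867 in the adult, and with 2 numbers this pairing is a hint only. With the replicate block, 2 members were called between the control organs, 2 between the *Eed* KO organs and 1 in the interaction (*Esrp1* beside *Epcam* in the first, *Esrp1* beside *Spint1* in the second, and *Epcam* in the interaction), and with the replicate block by embryo pool the counts were also 2, 2 and 1. The replicate block without embryo pools called 3 members in each comparison of *Eed* KO with control in the embryo, *Cdh1* being added, and 1 in the adult. Other windows or q limits left 6 to 9 members with a promoter peak. Folds in the intestine rest on at most 5 control reads per library for *Spint1* and 1 for *Esrp1*, and each group has 2 libraries.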
